A study of Mus musculus with 6 samples.

Results

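Gene expression was compared between mouse tumour ovarian surface epithelial cells homozygous for the p53 R172H mutation and cells with wild-type p53, using 2 arrays of each, 4 of the 6 arrays in the series. Animals were 9 weeks old in the wild-type and 4 weeks old in the homozygous group, so genotype and age cannot be told apart. The other 2 arrays were of heterozygous R172H cells, from animals of 9 and 12 weeks, and their values are given for many of the genes. Every group was of mixed background strain, and every sample title carries the prefix P/K, which the labels do not spell out and which the wild-type controls share. Cells were freed with trypsin, plated in medium with serum and insulin, transferrin and selenium, and collected unpassaged. Nothing in the labels says whether the arrays of a pair came from separate animals, so the p-values measure the spread between arrays, which may be technical.

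The members described are genes of 4 classes, transcription factors, receptors, secreted proteins and metabolic enzymes or transporters, listed by family. Of 2875 such genes on the array, 1527 were bright enough to test and 1348 were not. A gene was said to agree when its homozygous arrays lay within 1 log2 unit of each other and the nearest homozygous and wild-type arrays lay at least 1 log2 unit apart, after signals under 25 were raised to 25. By that rule 171 of the 1527 genes agreed. Separately, a gene was called where limma gave a Benjamini-Hochberg adjusted p under 0.05. Only called genes are said to have risen or fallen, and the error beside a log2 difference is the limma standard error, with n = 2 arrays per group. A fall computed with an array under 25 uses 25 for it, and where both homozygous arrays were under 25 the fold is given as a lower bound. Such a pair was set to equal values, so its spread is left out of the standard error and p-value.

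The ovarian surface epithelium is the single layer of mesothelium-like cells over the ovary, and it expresses gonadal homeobox factors, keratins and enzymes that handle steroids and retinoids. p53 is a transcription factor that binds DNA as a tetramer, and R172H is a substitution in its DNA-binding domain that corresponds to a common mutation of human tumours. Cells read outside signals through receptors, pass them to transcription factors, and return signals by secreting proteins.

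Signals of the homozygous arrays differed from each other more than those of the other pairs. The SD of the log2 difference over tested genes was 1.11 within the homozygous pair, 0.60 within the wild-type and 0.55 within the heterozygous pair. As signs of RNA quality, the beta-actin 3' minus 5' log2 difference ran from 0.66 to 0.96 outside the homozygous pair, which had 0.59 and 0.39. Homozygous array 2 also had the lowest 18S ribosomal RNA signal, 6696, where the other 5 arrays ran from 16873 to 22559. Of 15 tested surface epithelium markers, 2 fell, Upk1b and Lhx9, and their summed signal was 61212 and 78381 in homozygous against 175896 and 217007 in wild-type arrays. The keratin gene Krt18 had signals of 6247 and 12233 on the wild-type and 25436 and 5623 on the homozygous arrays. The mesothelial factor Wt1 had 15008 and 14759 on the wild-type and 5949 and 8457 on the homozygous arrays. Signal of these 2 markers was thus present in both groups. They are 2 of 16 listed and do not speak for the list, whose summed signal was lower on both homozygous arrays.

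Among all 10916 tested genes, 688 (6.30%) were called, 141 (1.29%) higher and 547 (5.01%) lower in homozygous cells. The agreement rule took 857 (7.85%), 255 (2.34%) higher and 602 (5.51%) lower. Without wild-type array 1 no gene was called by limma (1729 had an unadjusted p under 0.05), and without wild-type array 2 also none (2346), so no call below was kept when either wild-type array was left out. The count was 98 without heterozygous array 1, 126 without heterozygous array 2 and 2712 without homozygous array 2. With each array centred on its median, 169 were called higher and 360 lower, and 433 agreed higher and 450 lower. That centring moves the median log2 difference of all tested genes from -0.09 to 0.28. With quantile-normalised arrays this median was -0.02, 143 genes were called higher and 455 lower, and 285 agreed higher and 519 lower. The size of the excess of lower signals thus depends on the scaling.

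Receptors, secreted proteins and metabolic genes each held a larger share of agreeing genes than the array did, and transcription factors a smaller share. For receptors it was 30 of 194 tested genes (15.5%), for secreted proteins 41 of 301 (13.6%), for metabolic genes 79 of 688 (11.5%) and for transcription factors 21 of 344 (6.10%), against 7.85% over all genes. In each class more genes agreed lower than higher, 23 against 7 receptors, 37 against 4 secreted, 69 against 10 metabolic and 14 against 7 transcription factor genes. Both homozygous arrays were raised to the floor for 5 of the 23 receptors and 7 of the 37 secreted genes. The same held for 13 of the 69 metabolic and 3 of the 14 transcription factor genes. Agreement of such genes follows from the floor. With no floor, 17 receptors agreed lower and 7 higher, and 25 secreted genes lower and 4 higher. It was 57 against 10 for metabolic and 10 against 7 for transcription factor genes. The median log2 difference was -0.59 for receptors, -0.76 for secreted, -0.40 for metabolic and -0.13 for transcription factor genes, against -0.09 over all tested genes. With median-centred arrays the split of transcription factors turned to 13 higher and 12 lower, and that of metabolic genes moved to 15 higher and 49 lower. These shares are descriptions, since a gene bright in 1 group can pass the filter through that group, and no test was made of one class against another.

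**Figure D1:**
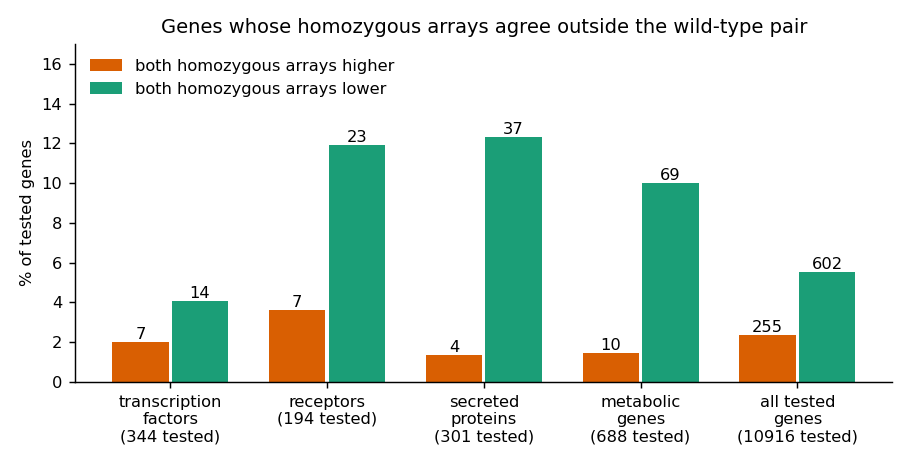
Percent of tested genes in each class, and of all tested genes, whose homozygous arrays agreed and lay above (orange) or below (green) the wild-type pair; the number over each bar is the count of genes. The lower bars reach 11.9% for receptors and 12.3% for secreted proteins against 5.51% of all tested genes. They include genes with both homozygous arrays raised to the floor, whose agreement follows from it.

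**Figure D2:**
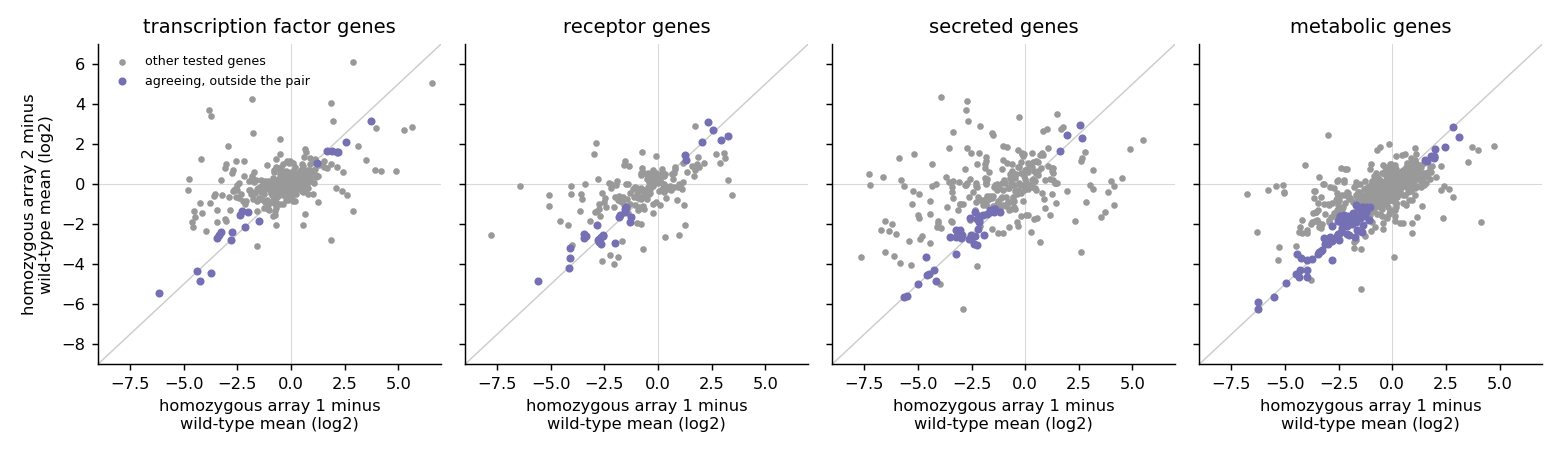
Each point is a tested gene of 1 class, with the log2 difference from the wild-type mean in homozygous array 1 on the horizontal and in array 2 on the vertical axis; purple points are the agreeing genes and the diagonal marks equal differences. Secreted genes scatter most from the diagonal, with a median difference between the homozygous arrays of 1.22 log2 units against 0.42 over all tested genes.

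Among transcription factors, the homeobox genes Lhx9 and Irx3 fell in homozygous cells, with Sp5 and Sox6, and the developmental factors Foxa2, Nr2f1 and Dlx2 rose. By limma 12 of 344 tested factors fell (adjusted p between 0.0066 and 0.0451), 6 rose (between 0.00928 and 0.0421) and 326 did not pass, 5.23% called. Median-centred arrays gave 8 lower and 11 higher. No gene of the 13 ETS or 42 basic helix-loop-helix factors tested was called, against 6.30% of all tested genes. Families of this size can hold no call at that share, so they are not shown to be unchanged.

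Lhx9, a LIM homeobox factor needed for gonad formation, had signals of 5271 and 4673 on the wild-type, 4011 and 3194 on the heterozygous and 68.9 and 113 on the homozygous arrays. It fell by 5.81 ± 0.32 on the log2 scale, and the heterozygous arrays lay just under the wild-type pair. Emx2, another homeobox factor of the urogenital ridge, had signals of 3581 and 3309 on the wild-type, 3289 and 4062 on the heterozygous and 716 and 1354 on the homozygous arrays. The arrays of the homozygous and wild-type groups did not overlap, as for 6714 of 10916 tested genes (61.5%), and the gene did not pass (log2 difference -1.81 ± 0.36, limma adjusted p = 0.0506). Irx3, an Iroquois homeobox factor, fell by 4.07 ± 0.35, from 3188 and 4818 to 298 and 182. Of 50 tested homeobox genes 2 fell and 2 rose, 8.0% called against 6.30% of all tested genes. Their median log2 difference was -0.46, against -0.09 over all tested genes, with 34 lower and 16 higher. By the agreement rule 4 lay lower and 1 higher.

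The homeobox genes that rose were Meis2, a cofactor of HOX proteins, and Dlx2, a distal-less factor of the developing forebrain and face. Meis2 had signals of 463 and 525 on the wild-type, 813 and 403 on the heterozygous and 2909 and 2135 on the homozygous arrays and rose by 2.34 ± 0.40. Dlx2 had 61.5 and 61.9 on the wild-type, 50.8 and 148 on the heterozygous and 978 and 434 on the homozygous arrays and rose by 3.40 ± 0.62, its homozygous arrays lying more than 1 log2 unit apart. Both homozygous arrays were above all 4 others for each gene.

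Foxa2, a pioneer factor of endoderm and of uterine glands, was under 25 on both wild-type arrays, with signals of under 25 and 35.2 in heterozygous and 2364 and 840.3 in homozygous arrays. The rise was at least 56.4-fold against a wild-type level of 25 (adjusted p = 0.00928), although its homozygous arrays were too far apart for the agreement rule. Foxp1, a forkhead repressor, rose by 1.79 ± 0.28, from 722 and 949 to 3149.9 and 2600.5. None of the other 15 tested forkhead genes was called.

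Nuclear receptors split as well, with 2 of 26 tested falling and 1 rising, 11.5% called against 6.30% of all tested genes. Nr2f1, known as COUP-TFI, had signals of 43.7 and 104 on the wild-type, 64.2 and 95.7 on the heterozygous and 907 and 609 on the homozygous arrays and rose by 3.46 ± 0.50. Nr0b1 and Nr0b2, known as DAX1 and SHP, lack a DNA-binding domain of the usual kind and repress other nuclear receptors. Nr0b1 fell by 3.07 ± 0.55, with 235 and 322 on the wild-type and under 25 and 42.8 on the homozygous arrays. Nr0b2 fell by 2.96 ± 0.36, with 531 and 619 on the wild-type and 56.3 and 97.1 on the homozygous arrays. The corepressors were thus lower together, and for both 1 heterozygous array lay above the wild-type pair and the other below it. Nr4a3, an immediate-early orphan receptor, had signals of 587 and 99.2 on the wild-type and under 25 and 46.7 on the homozygous arrays and did not pass (adjusted p = 0.104), its wild-type arrays differing widely and 1 of 3 probe sets pointing down.

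Sp5, a zinc finger factor induced by WNT signalling, had signals of 782 and 672 on the wild-type, 584 and 901 on the heterozygous and 38.6 and under 25 on the homozygous arrays and fell by 4.54 ± 0.35. Sox6, an SRY-related factor, was 400.2 and 656 in wild-type and under 25 on both homozygous arrays, at least 20.5-fold lower (adjusted p = 0.00924). Klf12, a Krüppel-like repressor, fell by 3.15 ± 0.60, from 277 and 533 to under 25 and 75.3, homozygous arrays more than 1 log2 unit apart, with 4 of 5 of its probe sets in that direction. Tbx2, a T-box repressor, fell by 1.66 ± 0.27, from 289.7 and 262 to 97.4 and 78.1, and Tshz3, a teashirt zinc finger factor, was under 25 on both homozygous arrays against 139.5 and 86.3, at least 4.39-fold lower.

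Of 36 tested basic leucine zipper factors 2 (5.56%) fell, Dbp and Jun, near the 6.30% called of all tested genes. Dbp, an output factor of the circadian clock, had signals of 1976 and 2029 on the wild-type, 2485 and 3647 on the heterozygous and 301 and 382 on the homozygous arrays and fell by 2.56 ± 0.29. Jun, the AP-1 subunit, fell by 1.97 ± 0.36, from 6304 and 8118 to 1358 and 2468. Stat5a, which carries cytokine signals to the nucleus, fell by 1.70 ± 0.30, from 174 and 165 to 42.6 and 64.0, with 1 of 2 probe sets in that direction, and was the 1 called of 24 tested REL, STAT, IRF and SMAD factors. Of the factors tied to growth, Tead2, the DNA-binding partner of YAP and TAZ, rose by 1.86 ± 0.31, from 187 and 264 to 972 and 667. E2f7 and Mybl2, regulators of the cell cycle, lay higher in both homozygous arrays, at 1244 and 1230.0 for E2f7 and 601 and 399.5 for Mybl2, but neither passed (adjusted p = 0.134 and 0.0568). Klf5 was 393 and 352 against 166 and 174, with 1 of 3 probe sets in that direction, and did not pass (adjusted p = 0.0518), and Nkx2-9 was under 25 on both homozygous arrays and did not pass either (adjusted p = 0.106).

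**Figure D3:**
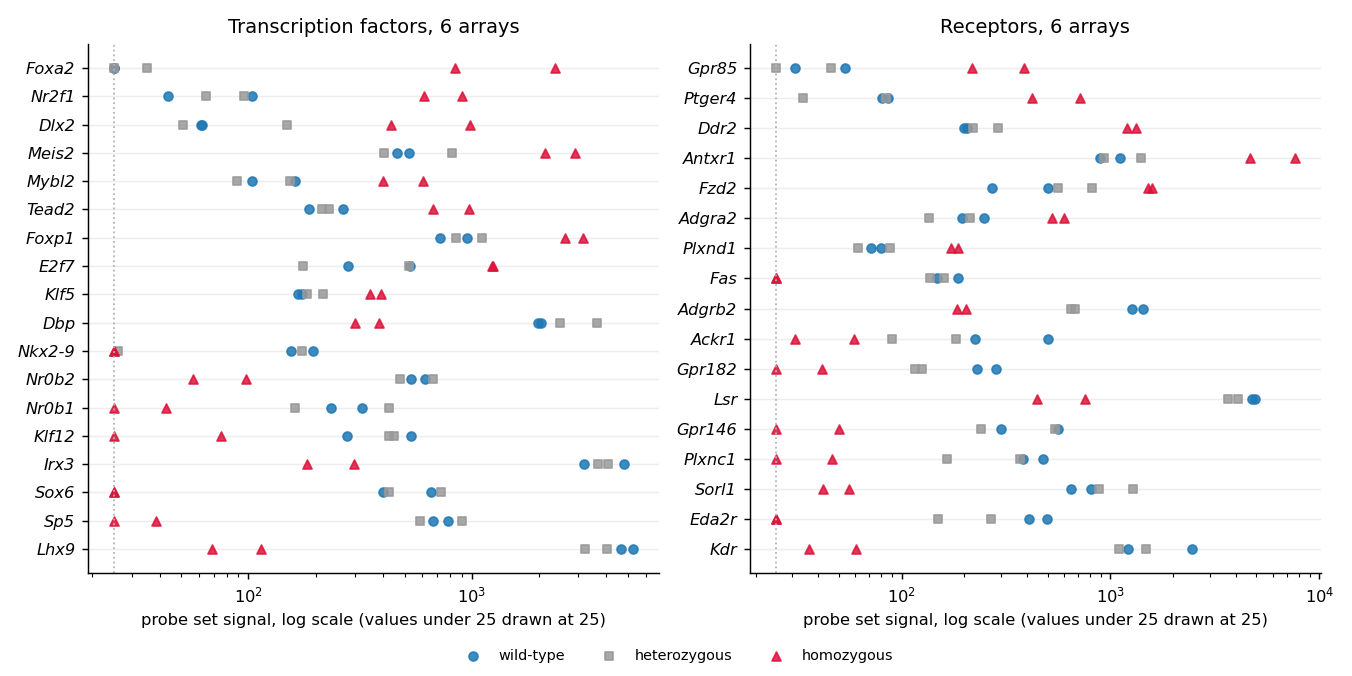
Signal on each of the 6 arrays, on a log axis, of the transcription factors (left) and receptors (right) chosen by the naming rule, with wild-type arrays as circles, heterozygous as squares and homozygous as triangles; values under 25 are drawn at the dotted line. Triangles lie apart from both circles, from Lhx9, at 68.9 and 113 against 5271 and 4673, to Nr2f1, at 907 and 609 against 43.7 and 104. The genes were chosen for a wide gap or a large called change, so this separation follows from the choice. Homozygous and wild-type arrays did not overlap for 61.5% of all tested genes.

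Among receptors, Kdr for a vascular growth factor, the death receptor Fas and the lipoprotein receptors Sorl1 and Lsr fell in homozygous cells, and the collagen receptor Ddr2, the WNT receptor Fzd2 and the prostaglandin receptor Ptger4 rose. By limma 22 of 194 tested receptors fell, 5 rose and 167 did not pass, 13.9% called. Adjusted p lay between 0.0105 and 0.0439 for those that rose. Median-centred arrays gave 13 lower and 8 higher. None of the 10 tested TGF-beta family receptors was called, too few to set against the 6.30% called over all tested genes.

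Kdr, the main receptor of vascular endothelial growth factor, had signals of 2469 and 1213 on the wild-type, 1104 and 1483 on the heterozygous and 35.9 and 60.4 on the homozygous arrays and fell by 5.22 ± 0.46 (adjusted p = 0.00924). Pdgfra, a platelet-derived growth factor receptor of mesenchyme, fell by 2.81 ± 0.36, from 615 and 1056 to 129.5 and 103. Ddr2, a kinase activated by fibrillar collagen, moved the other way, with signals of 198 and 207 on the wild-type, 220.5 and 290.2 on the heterozygous and 1203 and 1328 on the homozygous arrays, and rose by 2.64 ± 0.25. The 4 wild-type and heterozygous arrays of Ddr2 lay close together and far from both homozygous arrays. All 3 called endothelial markers, Kdr, Esam and Icam2, were the only tested ones of that list, and its summed signal was 1917 and 2767 in homozygous against 10488 and 10946 in wild-type and 9106 and 10428 in heterozygous arrays. Pecam1, Tek, Tie1, Emcn, Icam2 and Cldn5 were under 25 on both homozygous arrays. Fewer cells of a type and less RNA per cell cannot be told apart in such bulk samples, and the part of endothelial cells in the Kdr result was not tested.

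All 3 called receptors of the tumour necrosis factor family, of 12 tested, fell. Eda2r, the receptor of ectodysplasin A2 and a known p53 target, was 408 and 497 in wild-type, 269 and 149.8 in heterozygous and under 25 on both homozygous arrays, at least 18.0-fold lower. Fas, the death receptor and also a p53 target, was 148 and 186 in wild-type and under 25 on both homozygous arrays, at least 6.65-fold lower. Tnfrsf1b, a receptor of tumour necrosis factor itself, fell by 1.73 ± 0.28, from 1121 and 888 to 280.3 and 325. Both heterozygous arrays of Eda2r lay under the wild-type pair, while those of Fas were near it.

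Among lipoprotein and scavenger receptors 4 of 28 tested fell and 1 rose, 17.9% called against 6.30% of all tested genes. Sorl1, a sorting receptor that binds lipoproteins, had signals of 645 and 805 on the wild-type, 1279.8 and 887 on the heterozygous and 41.8 and 55.9 on the homozygous arrays and fell by 3.90 ± 0.31. Lsr, a lipoprotein receptor of tricellular junctions, fell by 3.07 ± 0.32, from 4913 and 4786 to 443 and 756, with 1 of 2 probe sets in that direction. Lrp2, or megalin, an endocytic receptor of absorptive epithelia, was under 25 on both homozygous arrays against 170.1 and 128, at least 5.91-fold lower. Antxr1, a matrix-binding receptor that also binds anthrax toxin, had signals of 1111 and 894 on the wild-type, 935 and 1400.3 on the heterozygous and 7658 and 4663 on the homozygous arrays and rose by 2.58 ± 0.36, with 1 of 2 probe sets in that direction.

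Receptors typical of white cells were among those that fell. Fcgr2b, an inhibitory receptor for immunoglobulin, fell by 2.45 ± 0.44, from 530.3 and 844 to 93.0 and 160.4, with 4 of 5 probe sets in that direction, and Csf2ra, the receptor of GM-CSF, fell by 2.65 ± 0.31, from 349.8 and 236 to 45.0 and 46.7. A further cytokine receptor, Il1rl2, which binds interleukin 36, fell by 1.47 ± 0.22, with 1 of 2 probe sets in that direction. Of 11 tested macrophage markers 4 fell, and the list's summed signal was 499 and 717 in homozygous, 3257 and 2715 in wild-type and 5708 and 5683 in heterozygous arrays. Lyz2, Ctss, Tyrobp, Ptprc, C1qa and C1qb were under 25 on both homozygous arrays, and the part of macrophages in these results was not tested.

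Of 56 tested G protein-coupled receptors 7 fell and 2 rose, 16.1% called against 6.30% of all tested genes. Ptger4, a receptor of prostaglandin E2, had signals of 85.9 and 80.7 on the wild-type, 84.6 and 33.9 on the heterozygous and 420.5 and 717 on the homozygous arrays and rose by 2.72 ± 0.51. Gpr85, an orphan receptor of the nervous system, rose by 2.83 ± 0.48, from 53.8 and 30.9 to 387 and 218, with 3 of 4 probe sets in that direction. Adgrb2, an adhesion receptor, fell by 2.80 ± 0.22, and its signals were ordered by genotype, with 1435 and 1263 on the wild-type, 678 and 651 on the heterozygous and 202 and 184 on the homozygous arrays. Gpr182 and Ackr1 bind chemokines without signalling through G proteins. Gpr182 fell by 2.98 ± 0.32, from 282 and 229.8 to under 25 and 41.7, and Ackr1 fell by 2.98 ± 0.58, from 504 and 225 to 31.0 and 59.1. Gpr146 fell by 3.53 ± 0.58. Pth1r, the receptor of parathyroid hormone, fell by 1.65 ± 0.28, and Lpar2, a receptor of lysophosphatidic acid, fell by 1.47 ± 0.27. Adgra2, a cofactor of WNT7 signalling, lay higher on both homozygous arrays, at 522 and 599 against 248 and 195, and did not pass (adjusted p = 0.0646).

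Fzd2, a WNT receptor of the Frizzled family, had signals of 272 and 504 on the wild-type, 559 and 818 on the heterozygous and 1511 and 1582 on the homozygous arrays and rose by 2.06 ± 0.38, the only called gene of 19 tested Notch, WNT and hedgehog receptors. The heterozygous arrays lay above the wild-type pair and below the homozygous pair.

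Several plexins, receptors of semaphorins, fell while a semaphorin rose. Plxnc1 fell by 3.65 ± 0.50, Plxna4 fell by 2.50 ± 0.45 and Plxna2 fell by 2.47 ± 0.49, with homozygous signals of 129 and 317, more than 1 log2 unit apart, against 1161 and 1129 for Plxna4. Only 3 of 6 probe sets of Plxnc1 pointed that way. Plxnd1 pointed the other way, at 186 and 173 against 79.6 and 71.3, and did not pass (adjusted p = 0.057). Sema3a, a secreted semaphorin that repels axons through neuropilins and A-type plexins, had signals of 189 and 323 on the wild-type, 324 and 307 on the heterozygous and 1547 and 1221 on the homozygous arrays and rose by 2.48 ± 0.33 (adjusted p = 0.0228). Both homozygous arrays of Sema3a lay above all 4 others.

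Secreted proteins fell far more often than they rose: 33 of 301 tested fell, 3 rose and 265 did not pass, 12.0% called. Over all tested genes 6.30% were called, and 547 of those 688 were lower. The 3 that rose were Sema3a, Bdnf and Bmp4, a repellent, a neurotrophin and a bone morphogenetic protein. Those that fell were led by lysozymes, apolipoprotein C-I, a secreted phospholipase and proteases.

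Bdnf, brain-derived neurotrophic factor, had signals of 153 and 188 on the wild-type, 164 and 242 on the heterozygous and 647 and 941 on the homozygous arrays and rose by 2.20 ± 0.33. Bmp4 had signals of 1364 and 1256 on the wild-type, 1407 and 2236 on the heterozygous and 4082 and 4160.2 on the homozygous arrays and rose by 1.65 ± 0.29. The chemokine Cxcl12, which binds CXCR4, was 1842 and 2446 in homozygous against 325 and 305 in wild-type arrays and missed the threshold (log2 difference 2.75 ± 0.58, adjusted p = 0.0545), with 2 of 3 probe sets in that direction. Bdnf, Bmp4 and Cxcl12 each had homozygous signals above every other array.

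Of 40 tested growth factors 2 fell and 1, Bdnf, rose, 7.5% called, near the 6.30% of all tested genes. Fgf18 fell by 1.52 ± 0.25, from 622 and 542 to 185 and 219.9, while Pdgfa, a ligand of Pdgfra, was 469.9 and 904 against 2789 and 2054 and did not pass (adjusted p = 0.0548). Of the chemokines, Cxcl14 fell by 2.67 ± 0.35 and Cxcl16 fell by 1.89 ± 0.31. Il34, a ligand of the macrophage receptor CSF1R, fell by 1.43 ± 0.24, from 144 and 184 to 59.2 and 61.9, and Ctf1, cardiotrophin 1, fell by 1.45 ± 0.28. Of 24 tested chemokines and cytokines 4 fell and none rose. They had 16.7% called, against 6.30% of all tested genes, and 547 of all 688 called genes were lower. Of the guidance proteins, Slit2 fell by 2.48 ± 0.46 and Reln fell by 2.63 ± 0.39, so the 3 called guidance ligands of 10 tested, Sema3a included, differed in direction.

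Ltbp2, a microfibril protein of the family named for latent TGF-beta binding, fell by 2.93 ± 0.34, from 262 and 208 to under 25 and 37.8. Its heterozygous arrays lay above the wild-type pair at 429.8 and 629. Fst, follistatin, an activin antagonist, was 101 and 120.4 against 437 and 268 and did not pass (adjusted p = 0.0616). Igfbp2, which binds insulin-like growth factors, fell by 4.14 ± 0.82, but its homozygous arrays, at 255 and 1519, were more than 1 log2 unit apart.

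The largest agreeing group of secreted genes was complement factors, lectins, carriers and hormones, with 13 of 44 tested agreeing lower and none higher, and 9 called. That is 29.5% agreeing, against 7.85% of all tested genes, and 20.5% called, against 6.30%. Of all 857 agreeing genes 602 lay lower. Both homozygous arrays were under 25 for 5 of the 13, whose agreement follows from the floor. Lyz1 and Lyz2, near-identical lysozymes whose probes may share transcripts, were under 25 on both homozygous arrays. Lyz1 was 1308 and 1206 in wild-type and 2936 and 2012 in heterozygous arrays, at least 50.2-fold lower in homozygous cells (adjusted p = 0.00535). Srgn, the granule proteoglycan serglycin, was 517 and 451 in wild-type and 1480.0 and 1159 in heterozygous arrays and at least 19.3-fold lower in homozygous cells. For both Lyz1 and Srgn the heterozygous arrays were the highest. Lysozyme, serglycin and cathepsin S are typical of macrophages, whose summed marker signals are given above beside Fcgr2b, and their part was not tested.

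Apoc1, an apolipoprotein of macrophages and liver, had signals of 3293 and 3131 on the wild-type, 2703 and 4712 on the heterozygous and 70.0 and 67.3 on the homozygous arrays and fell by 5.55 ± 0.32 (adjusted p = 0.0066). Cfi, the complement factor that cleaves C3b, fell by 4.90 ± 0.72, from 1987 and 1056 to under 25 and 93.8. Lgals7, a galectin of stratified epithelia, fell by 4.50 ± 0.66, from 2736 and 4982 to 209 and 128. For Apoc1 the homozygous arrays lay almost on top of each other, whereas those of Cfi differed by more than 1 log2 unit.

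Of 46 tested genes listed as proteases and matrix-modifying enzymes, cathepsins included, 7 fell and none rose. That is 15.2% called, against 6.30% of all tested genes, and 547 of all 688 called genes were lower. Pla2g5, a secreted phospholipase A2 grouped with them, was 460.4 and 1395 in wild-type and under 25 on both homozygous arrays, at least 32.1-fold lower. Ctss, cathepsin S, was 659.7 and 476 in wild-type and 1347 and 1152 in heterozygous arrays and at least 22.4-fold lower. Ctso fell by 3.09 ± 0.38, and Ctsk, the collagen-degrading cathepsin of osteoclasts, fell by 2.66 ± 0.31. Prss35, a serine protease-like protein of the ovary, fell by 4.85 ± 0.91, from 2862 and 1028 to under 25 and 142, homozygous arrays that lie far apart.

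Protease inhibitors fell in 5 of 26 tested genes and rose in none, 19.2% called against 6.30% of all tested genes. Few genes of any kind rose, since 547 of all 688 called genes were lower. Serpinb1a, an inhibitor of neutrophil proteases, fell by 4.15 ± 0.44. Spint1, an inhibitor of matriptase on epithelia, fell by 2.68 ± 0.38, from 256 and 447 to 65.8 and 42.5, and Cst9, a cystatin family member, fell by 2.77 ± 0.37. Matrix genes seldom passed: Egfl6, an integrin-binding matrix protein, fell by 4.69 ± 0.46, from 879 and 1139, with 1 homozygous array under 25 and the pair more than 1 log2 unit apart, and Prelp, a small leucine-rich proteoglycan, fell by 2.63 ± 0.40, the 2 called of 44 tested matrix glycoproteins and proteoglycans.

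**Figure D4:**
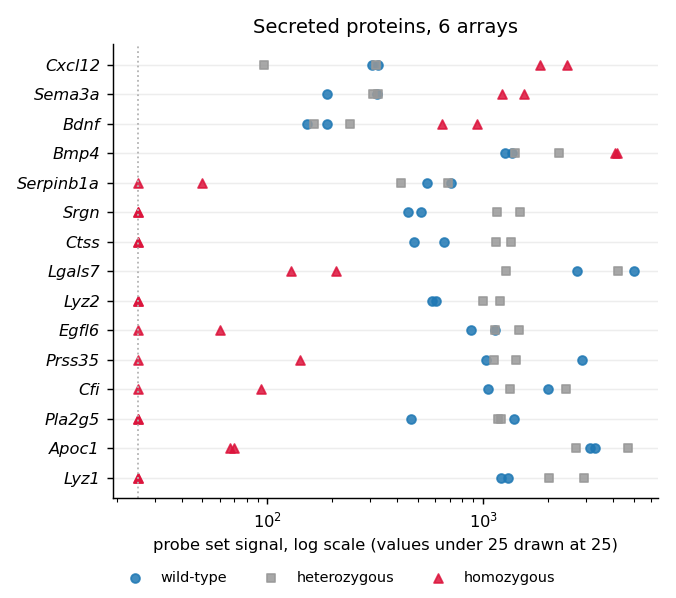
Signal on each of the 6 arrays, on a log axis, of the secreted protein genes chosen by the naming rule, with wild-type arrays as circles, heterozygous as squares and homozygous as triangles; values under 25 are drawn at the dotted line. Homozygous signals of Lyz1, Lyz2, Srgn, Ctss and Pla2g5 sit on the line, and those of Bmp4, 4082 and 4160, above all other arrays.

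Among metabolic genes, the metallothioneins Mt1 and Mt2, the steroid enzyme Hsd17b2, the carbonic anhydrase Car9 and the glutathione transferase Gstm6 fell, and 8 genes rose. By limma 60 of 688 tested fell, those 8 rose (adjusted p between 0.0276 and 0.0473) and 620 did not pass, 9.88% called. Over all tested genes it was 6.30%. The 8 that rose included Cad and Adsl of nucleotide synthesis, Mthfd2 of one-carbon metabolism and Srm of polyamine synthesis.

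Metallothioneins bind zinc and copper, and their genes are switched on by metals through metal response elements bound by the factor MTF1. Mt1 and Mt2 lie side by side on chromosome 8. The 250 bases before each start in RefSeq (GRCm38.p6, plus strand) are shown because these neighbours were lower together, with matches to the core of the element, TGCACNC or TGCGCNC on either strand, in capitals. Car9, carbonic anhydrase IX, is a textbook gene of the hypoxia response, and its 250 bases are shown with the core of the hypoxia response element, ACGTG or GCGTG on either strand, in capitals.
Mt1, chr8:94178839-94179088: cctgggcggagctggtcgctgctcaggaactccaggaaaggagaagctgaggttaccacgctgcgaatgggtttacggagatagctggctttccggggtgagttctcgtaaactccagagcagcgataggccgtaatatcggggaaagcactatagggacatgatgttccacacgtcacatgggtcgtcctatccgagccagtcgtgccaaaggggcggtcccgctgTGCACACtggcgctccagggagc
Mt2, chr8:94172368-94172617: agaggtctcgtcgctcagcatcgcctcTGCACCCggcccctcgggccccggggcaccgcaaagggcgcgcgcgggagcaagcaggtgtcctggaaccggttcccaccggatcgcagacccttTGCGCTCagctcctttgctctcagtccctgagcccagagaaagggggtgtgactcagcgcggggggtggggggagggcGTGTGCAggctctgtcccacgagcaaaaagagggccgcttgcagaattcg
Car9, chr4:43506776-43507025: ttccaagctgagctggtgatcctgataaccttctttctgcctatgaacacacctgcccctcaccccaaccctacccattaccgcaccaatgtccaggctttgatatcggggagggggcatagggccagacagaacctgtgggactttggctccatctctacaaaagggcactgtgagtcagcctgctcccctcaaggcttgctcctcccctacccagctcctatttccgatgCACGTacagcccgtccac
Mt1 held 1 metal element core, beginning 23 bases before the start, and Mt2 held 3, beginning 223, 128 and 50 bases before it, the last on the opposite strand. Of 32851 promoter windows of the same length 21.4% held at least 1 such core and 1.26% held 3 or more. Car9 held 1 hypoxia element core, 18 bases before the start on the opposite strand, as 38.6% of windows do. The matches are descriptions of letters, and no binding was measured. Other start sites and bases outside these windows, such as those after the start, were not searched. The counts are therefore not the number of elements of a gene.

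Mt1 had signals of 32180.2 and 21219 on the wild-type, 17861 and 32484 on the heterozygous and 1290.0 and 1036 on the homozygous arrays and fell by 4.50 ± 0.39 (adjusted p = 0.00924). Mt2 had signals of 25788 and 11708 on the wild-type, 10572 and 21354 on the heterozygous and 1102 and 686 on the homozygous arrays and fell by 4.32 ± 0.55 (adjusted p = 0.0204). For both genes the homozygous arrays lay far under all 4 others. Slc30a2, a transporter that moves zinc into vesicles, also fell: it fell by 4.13 ± 0.66, from 925 and 251 to 30.3 and under 25. Car9 had signals of 2515 and 7434 on the wild-type, 8013 and 9725 on the heterozygous and 56.3 and 73.9 on the homozygous arrays and fell by 6.07 ± 0.54 (adjusted p = 0.00925). Among other carbonic anhydrases Car2 fell by 4.22 ± 0.73, from 1347 and 704 to under 25 and 109.6, homozygous arrays more than 1 log2 unit apart. Car14 fell by 2.82 ± 0.35, from 458 and 308 to 54.0 and 52.6.

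Enzymes of steroids and retinoids had the highest share of agreeing genes of any metabolic family, 11 of 36 tested, all lower, with 8 called and a median log2 difference of -1.40. That is 30.6% agreeing, against 7.85% of all tested genes, and 22.2% called, against 6.30%. Both homozygous arrays were under 25 for 3 of the 11, whose agreement follows from the floor. Hsd17b2, which turns oestradiol into the weaker oestrone, was 1204 and 2992 in wild-type, 2813 and 3812 in heterozygous and under 25 on both homozygous arrays, at least 75.9-fold lower (adjusted p = 0.00817). Aldh1a7, an aldehyde dehydrogenase related to the retinal dehydrogenases, had signals of 3733 and 9701 on the wild-type, 8324 and 8691 on the heterozygous and 130.4 and 121 on the homozygous arrays and fell by 5.58 ± 0.47. Rdh10, which makes retinal from retinol, fell by 2.10 ± 0.35, from 3526 and 3214 to 710.0 and 863. Cyp26b1, which breaks down retinoic acid, fell by 1.50 ± 0.30, so enzymes on the making and on the breaking side were both lower. The granulosa and theca markers, cells that also make steroids, had a summed signal of 259 and 2702 in homozygous, 16255 and 11690 in wild-type and 9093 and 12174 in heterozygous arrays. None of the 4 tested markers was called, Fshr, Amh, Cyp11a1 and Cyp17a1 were under 25 on both homozygous arrays, and the part of those cells was not tested.

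Detoxifying enzymes fell in 10 of 77 tested genes and 1 rose, 14.3% called against 6.30% of all tested genes. Gstm6, a glutathione transferase, was 653 and 364 in wild-type and under 25 on both homozygous arrays, at least 19.5-fold lower. Of the theta class of glutathione transferases, Gstt1 fell by 3.05 ± 0.37, Gstt3 fell by 2.20 ± 0.42, and Gstt2, under 25 on both homozygous arrays, was at least 13.3-fold lower. Ephx1, microsomal epoxide hydrolase, was listed with eicosanoid and nitric oxide genes and is not among those 77. It fell by 3.28 ± 0.44, from 3144 and 4984 to 569 and 291. Cyp1b1, a cytochrome P450 that hydroxylates oestradiol, had signals of 1279 and 1389.6 on the wild-type, 1462 and 516 on the heterozygous and 9528 and 9781 on the homozygous arrays and rose by 2.86 ± 0.50. With Hsd17b2 lower and Cyp1b1 higher, enzymes that act on oestradiol differed in direction.

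Single enzymes of nucleotide, polyamine and one-carbon synthesis rose. Cad, which carries out the opening steps of pyrimidine synthesis, had signals of 320.4 and 366 on the wild-type, 464 and 294 on the heterozygous and 1899 and 1243 on the homozygous arrays and rose by 2.17 ± 0.35. Adsl, of purine synthesis, rose by 1.36 ± 0.24, from 1131 and 1042 to 3091 and 2518. These were the 2 called of 50 tested nucleotide genes (4.0%, against 6.30% of all tested genes), whose median was 0.40. Pnp, of purine salvage, lay lower at 3773 and 3979 against 8103 and 9596, as did Entpd2, an ectonucleotidase, at 45.3 and 74.0 against 467 and 211, and neither passed (adjusted p = 0.0578 and 0.0631).

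Mthfd2, a mitochondrial folate enzyme, had signals of 1102 and 1496 on the wild-type, 1542 and 1793 on the heterozygous and 5081 and 4317 on the homozygous arrays and rose by 1.87 ± 0.27. Srm, spermidine synthase, rose by 1.69 ± 0.28, from 2929 and 2769.6 to 11059 and 7669. Shmt1, the cytosolic serine hydroxymethyltransferase, was 1378 and 1061 against 416 and 380.5 and missed the threshold (adjusted p = 0.0505). The rest of the amino acid and one-carbon family went down where called, 6 of 50 tested against 2 that rose. That family had 16.0% called, against 6.30% of all tested genes. Hdc, which makes histamine, was 397 and 808 in wild-type and under 25 on both homozygous arrays, at least 22.6-fold lower, and Hnmt, which breaks histamine down, was at least 11.2-fold lower. Glul, glutamine synthetase, fell by 2.18 ± 0.32, from 2619 and 2115 to 411 and 659.6.

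Of the central carbon enzymes that passed, all fell, as did 547 of all 688 called genes. Me2, mitochondrial malic enzyme, fell by 2.31 ± 0.25, from 7769 and 6968 to 1714 and 1289, Idh1, cytosolic isocitrate dehydrogenase, fell by 2.01 ± 0.39, and Bdh1, of ketone bodies, fell by 1.18 ± 0.22, the 3 called of 27 tested genes of the citric acid cycle and ketone bodies. That family had 11.1% called, against 6.30% of all tested genes, and no gene of it had homozygous arrays over 1 log2 unit apart. Aldoc, an aldolase, fell by 4.30 ± 0.56, from 13413 and 6999.7 to 698 and 345, and Pdk2, which restrains pyruvate dehydrogenase, fell by 1.72 ± 0.26, 2 of 32 tested glycolytic genes. Gbe1, the glycogen branching enzyme, fell by 1.42 ± 0.27.

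Lipid genes fell where they passed, as did 547 of all 688 called genes. Called were 3 of 51 tested genes of fatty acids (5.88%) and 3 of 59 of glycerolipids, phospholipids and sphingolipids (5.08%). Of cholesterol and isoprenoid genes 2 of 29 were called (6.9%). These shares were near the 6.30% over all tested genes. Fabp3, a fatty acid-binding protein, had signals of 3197 and 1405 on the wild-type, 1767 and 3485 on the heterozygous and 52.2 and 154 on the homozygous arrays and fell by 4.56 ± 0.69. Acss2, which makes acetyl-CoA from acetate, fell by 1.63 ± 0.27, and Fads2, a desaturase, fell by 1.48 ± 0.28. Lpin1, a phosphatidate phosphatase, fell by 1.97 ± 0.30, Cers4, a ceramide synthase, fell by 2.10 ± 0.39, Dhcr7, of the last step of cholesterol synthesis, fell by 1.91 ± 0.29, and Abca1, the cholesterol exporter, fell by 1.94 ± 0.24. For Acss2 2 of 3 and for Abca1 2 of 3 probe sets pointed down, and the homozygous arrays of Fabp3 lay more than 1 log2 unit apart. Agpat4, an acyltransferase, was 2687 and 1588 against 632 and 157 and did not pass (adjusted p = 0.0801), with its wild-type arrays far apart.

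Of 182 tested solute carriers 10 fell and 2 rose, 6.59% called, near the 6.30% of all tested genes. Slc16a9, a monocarboxylate family transporter, was 1279.7 and 473 in wild-type and under 25 on both homozygous arrays, at least 31.1-fold lower. Slc23a3, of the ascorbate transporter family, fell by 3.98 ± 0.70. Slc20a1, a phosphate importer, rose by 1.63 ± 0.29, from 621 and 602 to 2371 and 1509, with 2 of 3 probe sets in that direction. Slc7a6, an amino acid exchanger, rose by 1.39 ± 0.27, from 640.4 and 739.5 to 2134 and 1532. Fut10, a fucosyltransferase, rose by 1.66 ± 0.29.

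**Figure D5:**
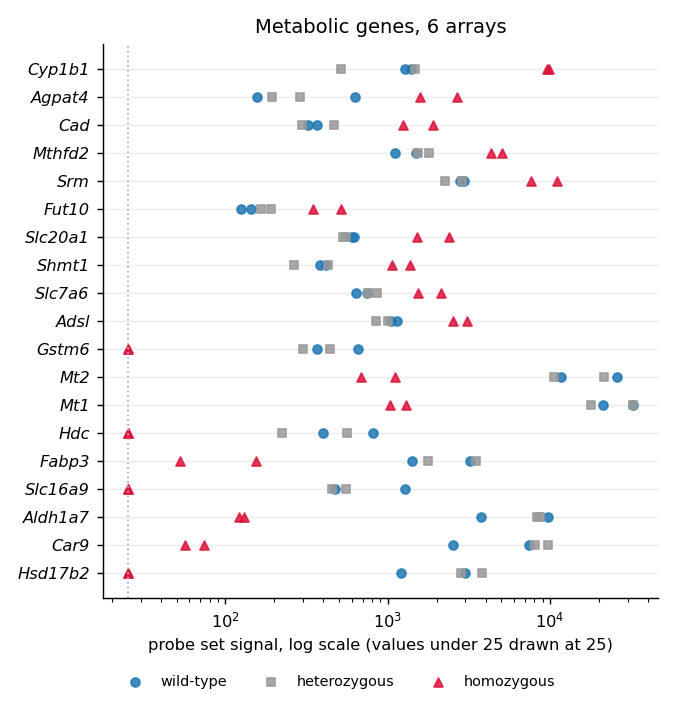
Signal on each of the 6 arrays, on a log axis, of the metabolic genes chosen by the naming rule, with wild-type arrays as circles, heterozygous as squares and homozygous as triangles; values under 25 are drawn at the dotted line. Mt1 falls from 32180 and 21219 to 1290 and 1036, while Cyp1b1 rises from 1279 and 1390 to 9528 and 9781.

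Many class genes were left out by the agreement rule because the homozygous arrays differed from each other. They lay over 1 log2 unit apart for 540 of 1527 class genes (35.4%), against 208 (13.6%) for the wild-type pair, and array 1 was the lower for 372 of the 540. The share was 56.8% for secreted, 39.2% for receptor, 33.1% for transcription factor and 26.0% for metabolic genes, against 20.2% of all tested genes. Collagens were the extreme, with 19 of 22 tested genes over 1 log2 unit apart and array 1 lower in 16 of them, and none was called. The genes named next were chosen after their values were seen. Col3a1, a fibrillar collagen, had signals of 255 and 31824 in homozygous arrays 1 and 2 against 26026 and 23987 in wild-type arrays. Igfbp3 was 48.3 and 7057 against 8742 and 5954, C1s1, a complement protease with a near-identical copy, 47.0 and 10403 against 7318 and 7145, and Gas6, a ligand of TAM receptors, 27.1 and 3655 against 18817 and 14274. Homozygous array 2 was thus near the wild-type level for the first 3 and array 1 was not. Smooth muscle markers had a summed signal of 12198 and 48015 and fibroblast markers of 22866 and 88185 in homozygous arrays 1 and 2, against 22052 and 34828 and 65395 and 47783 in wild-type arrays, and their part in the divergence was not tested.

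The heterozygous arrays stayed with the wild-type pair for most of the 171 agreeing class genes. The heterozygous mean was within 1 log2 unit of the wild-type mean for 153 of them (89.5%), higher for 6 and lower for 12, with a median difference of 0.01, against -2.12 for homozygous minus wild-type. Over all tested genes 98.4% were within 1 log2 unit. Both differences use the same wild-type arrays, and the members were chosen on the homozygous difference. At the edge of the rule, Slc44a1 was just inside, with 5809 and 8164 on the wild-type and 2904 and 2628 on the homozygous arrays and a difference of -1.001 log2 units between the nearest arrays, and Tm7sf2 just outside, at -0.993. Slc25a45 was just inside on the spread of its homozygous arrays, at 0.989, and Gpr146 just outside, at 1.009.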

How the data were processed

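Total RNA was labelled with biotin and hybridised to single-colour Affymetrix mouse arrays, per the labels. The authors deposited linear probe set intensities for 45101 probe sets. The submitters' processing notes name RMA, with no version given in the sources used here, but the mean of the middle 96% of intensities is 500 in every array, a form of MAS 5.0 signals. No normalisation was added. Median intensities were 41.1 to 60.6, and the highest Trpn control value was 24.5.

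Of the probe sets, 34958 named 1 symbol in the platform annotation, 932 several and 9211 none, and the last 2 kinds were not used. By Entrez identifier 34754 probe sets were matched to a RefSeq gene and took its symbol. Signals under 25 were raised to 25, and log2 was taken. For each of 18194 genes the probe set of highest mean was kept, and genes at or above the 40th percentile of the mean (signal 65.4) were tested. The model was limma's (version 3.58.1, R 4.3.3), a mean for each of the 3 groups over 6 arrays, with 3 residual and 2.47 prior degrees of freedom. Where both arrays of a group were under 25, the fold is a lower bound against 25. The script was tested on simulated data. Groups follow the sample titles, because a characteristic given for the homozygous samples conflicts with them. The p53 transcript was not analysed here.

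The members, lists and tests were chosen with earlier results of these data known. In each class the rule named up to 8 agreeing genes in each direction with the widest gap, up to 8 called genes in each direction with the largest change, and up to 2 more members of a family so named. Stat5a, Csf2ra, Il1rl2, Igfbp2, Ctf1, Il34, Gstt3, Ephx1, Abca1, Dhcr7, Me2, Idh1, Bdh1, Aldoc, Pdk2 and Gbe1 were named after their values were seen. Alternatives to the floor, filter, probe set choice, normalisation, fit and limits of the rule were tried, and each array was left out in turn. Lymphocyte and oocyte markers had summed signals of 276 and 254, and of 166 and 317, in homozygous against 367 and 291, and 195 and 191, in wild-type arrays. Promoter sequences are RefSeq's for GRCm38.p6. Figures were drawn with matplotlib 3.10.9 in Python 3.11.15.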

Additional observations from a re-analysis of the deposited data

How the results depend on the processing

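No named gene changed direction under any alternative in which it was tested. Most were named for a wide gap or a large called change, so a kept direction follows largely from the choice. Against 688 genes called, 805 were called with a floor of 50, 689 with the mean of all probe sets, 529 with median-centred and 598 with quantile-normalised arrays. The count was 341 with no floor, 386 with no filter on dim genes, 457 with the filter at the 60th percentile (164 higher, 293 lower), 102 with a fit of only the 2 groups compared and 456 with the spread estimated for each group. Leaving out 1 array at a time gave 0 to 2712. The cause of these shifts was not tested. Replicate numbers were not taken as pairs (same-number correlation -0.10 between wild-type and homozygous arrays, over only 2 numbers), and with the replicate number as a block 254 genes were called, 245 of them shared with the fit without it. The agreement rule took 857 genes, 712 to 1034 over both floors, no filter, both normalisations and the mean of all probe sets. It took 404 at the 60th percentile (179 higher, 225 lower), 588 with homozygous arrays within 0.5, 237 with nearest arrays at least 2 apart, and 832 to 1635 with 1 wild-type or heterozygous array left out. It could not be applied without a homozygous array. Of 112 named genes called, 108 were still called at a floor of 50, 95 with quantile-normalised and 82 with median-centred arrays, 64 with no filter on dim genes and 47 with the block. The counts were 67 of 109 with no floor, 78 of 112 with the spread estimated for each group, 25 of 108 with only the 2 groups compared, 25 and 29 of 110 without heterozygous replicate 1 and 2, and 0 without either wild-type array. Signals near 25 carry no order, and 2 arrays per group limit every value.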

Other observations

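Outside the 4 classes, 686 of 9389 tested genes agreed by the same rule, 227 higher and 459 lower in homozygous cells, and 119 were called higher and 420 lower. The genes named here were chosen after their values were seen, as having some of the widest gaps. Rnase4, a secreted ribonuclease of the angiogenin family that is in none of the lists, had signals of 8715 and 6794 on the wild-type, 5768 and 6727 on the heterozygous and 166 and 180.1 on the homozygous arrays and fell by 5.48 ± 0.25 on the log2 scale. Heph, hephaestin, a copper-dependent iron oxidase, fell by 5.16 ± 0.38, from 1139.7 and 864 to under 25 and 30.7. Ano1, a calcium-activated chloride channel, fell by 4.83 ± 0.30, from 2658 and 3696 to 104 and 117, and Cldn10, a claudin of tight junctions, fell by 4.19 ± 0.41. Dapk2, a calmodulin-regulated kinase, fell by 5.54 ± 0.51, and Capn6, a calpain-like protein without protease activity, fell by 5.21 ± 0.34.

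Fewer such genes were higher. Eya4, a coactivator of sine oculis-type homeobox factors, had signals of under 25 and 49.2 on the wild-type, 25.5 and 27.6 on the heterozygous and 1014 and 658 on the homozygous arrays, with both homozygous arrays far above the other 4, and rose by 4.54 ± 0.41 (limma adjusted p = 0.00928), with 3 of 4 probe sets in that direction. Septin11, a cytoskeletal GTPase, rose by 2.21 ± 0.25, Nup205, a nuclear pore component, rose by 2.15 ± 0.29, and Hipk2, a kinase known to phosphorylate p53, rose by 1.94 ± 0.24, from 892 and 924 to 3383 and 3589.6, with 6 of 8 probe sets in that direction.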
